A study of Arabidopsis thaliana with 10 samples.

Results

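The 10 genes described here lie on the plastid genome of Arabidopsis thaliana. They encode parts of photosystem II, apart from psbN, which in tobacco encodes a factor needed to assemble it. They were taken as the genes psbA, psbB, psbC, psbD, psbE, psbF, psbH, psbJ, psbN and psbT with a plastid locus tag and a probe set that the annotation assigns to that single gene. They are 10 of 69 such plastid genes, and there are 13513 single-gene probe sets in all. Their transcripts were measured on 10 Affymetrix ATH1 arrays, 1 per sample of whole seedlings, 2 arrays in each of 5 groups. The groups were seedlings given dexamethasone for 4 h, seedlings given dexamethasone for 24 h, and controls given the solvent DMSO at 0 h, 4 h and 24 h. All 5 groups shared the Col-0 background and a transposon knock out labelled Atglk1;Atglk2. All had been grown on medium with sucrose and hygromycin B in cycles of light and dark before being moved to shaken liquid culture, where many seedlings shared a flask. The labels name no transgene, and the series title gives the targets of the transcription factor AtGLK1 as the subject. Dexamethasone is a synthetic steroid often used to switch on a steroid-dependent protein. The annotation used here gives 0 probe sets for GLK1 and 0 for GLK2, so neither gene could be checked. The labels do not state whether both arrays of a group had their own culture. P-values therefore cover the spread among these arrays, and that spread could be technical.

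Photosystem II is the thylakoid complex that uses light to split water and pass electrons to plastoquinone. Its core is built from subunits made inside the plastid together with subunits made from nuclear genes, and the D1 protein at its centre is damaged by light and replaced continually. Plastid genes are often transcribed together as long RNAs that are then cut into smaller ones. The psbB gene heads such a unit, with psbT, psbH, petB and petD behind it. The psbN gene lies between psbT and psbH, on the opposite strand in the plant plastid genomes studied, and is grouped here with the psbB unit. In the RefSeq gene order psbB, psbT, psbN and psbH carry the consecutive tags ArthCp049, ArthCp050, ArthCp051 and ArthCp052. The genes psbD (ArthCp017) and psbC (ArthCp018) are neighbours, as are psbE (ArthCp039) and psbF (ArthCp038), while psbJ is ArthCp036 and psbA is ArthCp002. No genome build is named for these arrays, so coordinates are not given.

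The values are MAS5 signals on a linear scale that were deposited after scaling each array to a common mean. A signal depends on the probes of its probe set, so levels of different genes are not set against each other. The mean of the member genes was lowest on replicate 1 of the 0 h control, where the arrays' hybridization spike-ins, RNAs added in fixed amounts to every array, were lowest as well. The mean log2 signal of the 18 spike-in probe sets, centred on the average of the 10 arrays, ran between -0.53 on that array and 0.51 on replicate 2 of the 4 h control, a 2.06-fold range. Replicate 2 of dexamethasone at 4 h and replicate 1 of the 24 h control stood apart from the other arrays on the second axis of variation, which held 23.4% of the variance. The signal of the 25S ribosomal RNA probe set ran between 532 and 4027, and the 3' to 5' signal ratio of GAPDH between 0.814 and 0.989. Markers of the tissue were few among the named probe sets. The green tissue marker RCA, the activase of Rubisco, had 4303 to 5975, the root hair marker EXPA7 32.1 to 57.2 and the guard cell marker FMA 32.7 to 50.3. In whole seedlings, fewer green cells and less plastid RNA per cell cannot be told apart. The labelling was the one-cycle method, which primes on poly(A) tails. Most plastid transcripts carry no stable tail, so how far a signal follows the amount of a plastid RNA is uncertain.

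psbA encodes D1, one of the paired reaction centre proteins. Its signal was between 1303 and 2435 over the 10 arrays, a 1.87-fold range. It was the member whose lowest group was not the 0 h control. Its order of group means was dexamethasone at 24 h, control at 4 h, control at 0 h, dexamethasone at 4 h and control at 24 h, and each group overlapped the next. psbD encodes D2, the partner of D1, and had 126 to 527, a 4.19-fold range. Its groups ran downward as dexamethasone at 24 h, control at 4 h, dexamethasone at 4 h, control at 24 h and control at 0 h, where the last pair alone overlapped.

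psbC and psbB encode the inner antenna proteins CP43 and CP47, which bind chlorophyll and feed the reaction centre. The psbC signal was between 618 and 1298, a 2.1-fold range. Its group means ran downward as control at 4 h, dexamethasone at 24 h, dexamethasone at 4 h, control at 24 h and control at 0 h, and only the last pair overlapped. The psbB signal was between 191 and 815, a 4.26-fold range, with the same order of groups. Each psbB group overlapped the next.

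psbE and psbF encode the subunits of cytochrome b559, a haem protein beside the reaction centre. Both varied little. psbE had 1111 to 1634 (1.47-fold) and psbF 1825 to 2513 (1.38-fold). The means of both were highest with dexamethasone at 24 h and lowest in the control at 0 h. In psbE the control at 24 h and the control at 0 h did not overlap, and in psbF dexamethasone at 24 h and the control at 4 h did not overlap. The other neighbours in each order overlapped.

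psbH, psbJ and psbT encode small single-span subunits of the complex, and psbN, in tobacco, a factor needed to assemble it. psbH had 610 to 1267, a 2.08-fold range. Its control at 4 h and dexamethasone at 24 h overlapped at the top, and below them dexamethasone at 4 h, control at 24 h and control at 0 h each lay apart. psbT had 183 to 432 (2.36-fold), with dexamethasone at 24 h highest and control at 0 h lowest. In the psbT order dexamethasone at 4 h lay apart from the control at 24 h, and other neighbours overlapped. psbJ had 837 to 1191 (1.42-fold) and psbN 18.9 to 98.8 (5.23-fold), with every neighbouring pair of groups overlapping. psbN was the weakest probe set, and its 18.9 on replicate 1 of the 0 h control lay below percentile 40 of that array, 20.2, the level under which probe sets were treated as weak.

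**Figure D1:**
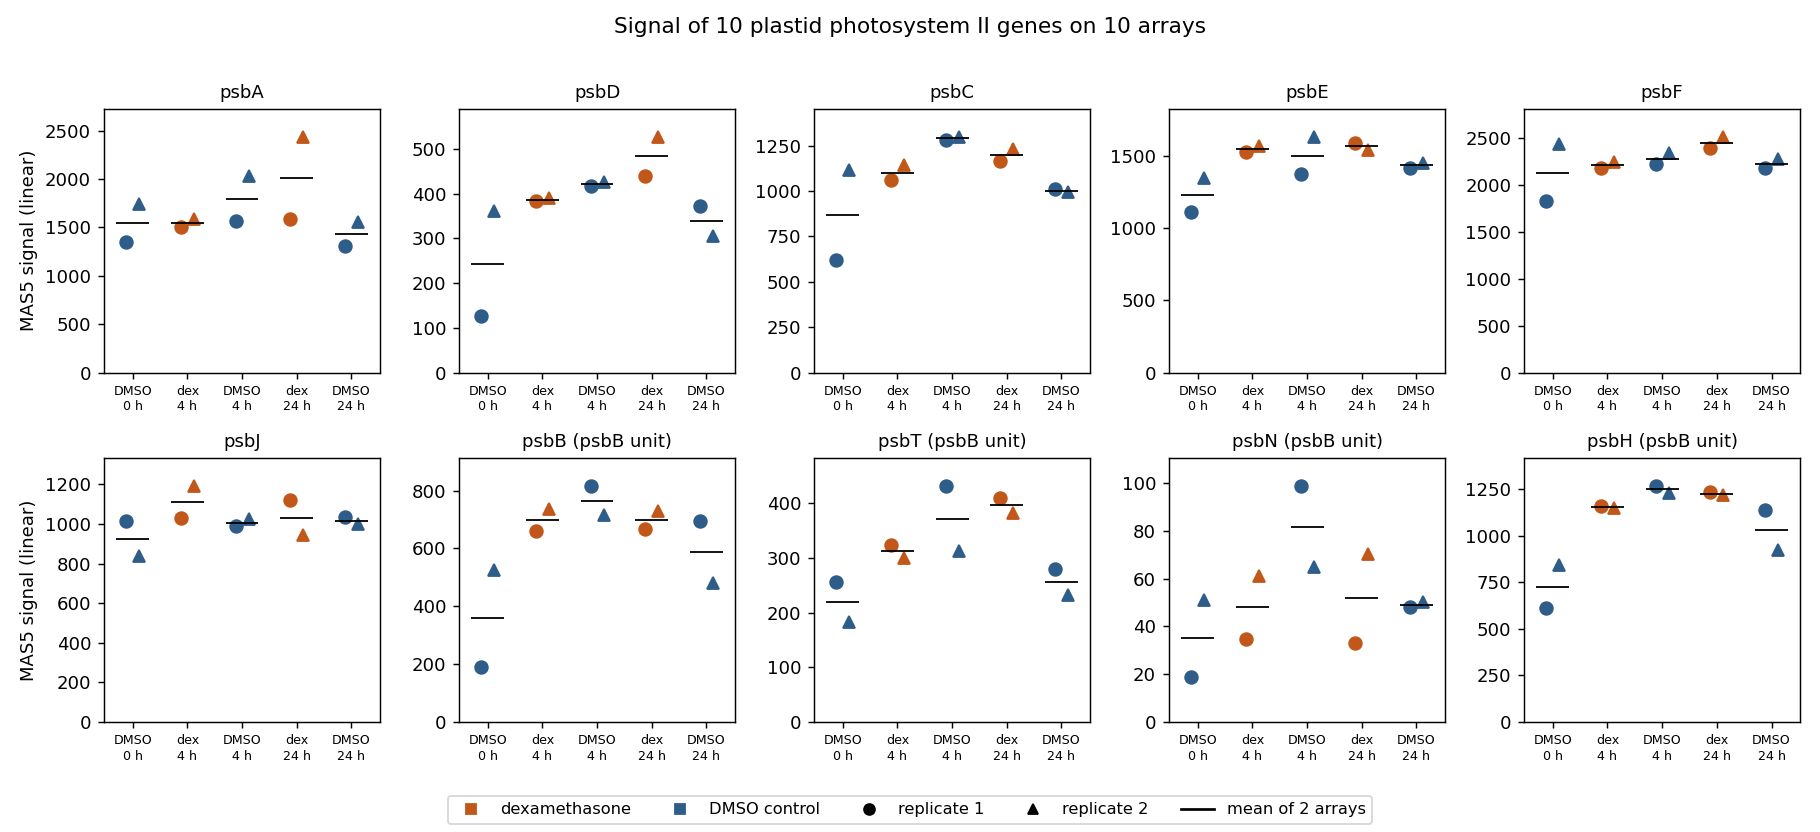
Signal (MAS5, linear, each axis starting at 0) of the 10 genes on the 10 arrays, with points for arrays and a bar for the mean of 2 arrays. For psbB and psbD the lowest point, 191 and 126, is replicate 1 of the 0 h control, while psbF stays between 1825 and 2513.

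The control at 0 h had the lowest group mean in 9 of 10 members. The single array with the lowest signal was replicate 1 of that group in 7 of 10 members, where 7.73% of all 14575 tested probe sets had their lowest value on that array. With that array left out, the range of psbB over the other 9 arrays was 1.70-fold, that of psbD 1.73-fold, that of psbC 1.31-fold and that of psbH 1.50-fold. The ranges of psbT, psbA and psbJ did not depend on it. The highest group mean was that of dexamethasone at 24 h in 5 members, of the control at 4 h in 4 and of dexamethasone at 4 h in psbJ.

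The control seedlings at 4 h and 0 h were compared to follow the members without dexamethasone. All 10 members lay higher at 4 h, against 49.3% of all tested probe sets, and their median log2 change was 0.69, against -0.00 over all. Of the members 1, psbH, passed limma's moderated test at an adjusted p under 0.05, where 1.1% of tested probe sets passed as higher and 1.52% as lower. Another 6 had an unadjusted p under 0.05, which makes 7 of 10 against a background of 6.44%. In 7 of 10 members both 4 h arrays lay above both 0 h arrays, against 21.9%.

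The psbH signal was 1267 and 1232 in the control at 4 h, against 610 and 845 in the control at 0 h. The 4 h arrays lay close together and well above both 0 h arrays. Its log2 change was 0.80 (SE 0.15, n = 2 each, limma adjusted p = 0.0152). It no longer passed when replicate 1 of the 0 h control was left out (log2 change 0.56, adjusted p = 0.113), when either 4 h array was (adjusted p = 0.124 without replicate 1 and 0.107 without replicate 2), with an eBayes fit without a trend (0.0610) and with the spike-in level as a covariate (log2 change 0.67, adjusted p = 0.0721).

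The other genes of the psbB unit had log2 changes of similar or larger size with larger errors, and none passed. The psbB signal was 815 and 715 in the control at 4 h, against 191 and 526 in the control at 0 h. It differed by 1.25 on the log2 scale (SE 0.34, adjusted p = 0.0952), short of the threshold, and by 0.53 without replicate 1 of the 0 h control. The psbT signal was 432 and 312 at 4 h, against 256 and 183 at 0 h, a log2 change of 0.75 (SE 0.18, adjusted p = 0.0586). For psbT the lower 0 h array was replicate 2, not replicate 1. psbT passed with the spike-in level as a covariate (1.04, adjusted p = 0.00775) and in 3 further alternatives, 4 of 13. The psbN signal was 98.8 and 65.0 at 4 h, against 18.9 and 51.3 at 0 h, a log2 change of 1.23 (SE 0.42, adjusted p = 0.195). Its change was 0.60 without replicate 1 of the 0 h control and 1.86 without replicate 2.

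Among the reaction centre and antenna genes outside the unit, psbD had 418 and 426 in the control at 4 h, against 126 and 361 in the control at 0 h. Its log2 change was 0.97 (SE 0.34, adjusted p = 0.212), and 0.22 without replicate 1 of the 0 h control. psbC had 1280 and 1298 at 4 h, against 618 and 1113 at 0 h, a log2 change of 0.63 (SE 0.20, adjusted p = 0.162), and 0.21 without that array. Most of the distance in psbD and psbC was to that 1 low array. Without the other 0 h array, replicate 2, psbB, psbC, psbD and psbH passed. The remaining members had smaller log2 changes, psbE 0.29, psbA 0.21, psbJ 0.12 and psbF 0.11, none with an adjusted p under 0.3. psbA had 1564 and 2027 in the control at 4 h, against 1352 and 1740 in the control at 0 h, so its groups overlapped.

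The median change of the members was 0.24 without replicate 1 of the 0 h control and 0.77 without replicate 2. The spike-in mean was 0.03 and 0.51 in the control at 4 h, against -0.53 and 0.14 in the control at 0 h, overlapping but higher on average at 4 h. With the spike-in level of each array as a covariate, an alternative added after the values had been seen, 8 of 10 members lay above 0 and their median was 0.40. The 25S signal was 2917 and 2964 at 4 h, against 1642 and 2863 at 0 h, and RCA had 4485 and 5575 against 4303 and 5593. The root hair marker EXPA7 had 32.1 and 37.8 at 4 h, against 57.2 and 46.4 at 0 h, without overlap (log2 change -0.51, unadjusted p = 0.0420, limma adjusted p = 0.337). The 3' to 5' signal ratios of GAPDH and ubiquitin did not overlap either, while that of actin did (1.74 and 2.43 at 4 h, against 2.22 and 1.75 at 0 h). That of GAPDH was 0.898 and 0.814 at 4 h, against 0.989 and 0.981 at 0 h, and that of ubiquitin 1.044 and 1.048, against 1.203 and 1.0996. The part of these measures in the result was not tested otherwise.

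The control at 24 h was compared with that at 0 h as well. No member passed in the control at 24 h against the control at 0 h, where 0 of all tested probe sets passed and 662 had an unadjusted p under 0.05. The members' median log2 change was 0.25, against 0.00 over all, with 9 of 10 above 0 (background 50.2%). psbB had 694 and 479 at 24 h, against 191 and 526 at 0 h (log2 change 0.85, SE 0.34), and psbH 1138 and 926, against 610 and 845 (0.51, SE 0.15). These were the members with an unadjusted p under 0.05 (0.0294 for psbB, 0.00524 for psbH), 2 of 10 against 2.07% upward, at adjusted p = 0.971 for both. Only psbH and psbE, of the 10, had groups that did not overlap, against 16.1% of probe sets, and psbA was lowest at -0.11. The median was 0.02 without replicate 1 of the 0 h control and 0.53 without replicate 2. Without replicate 1 psbB was at 0.13 and psbH at 0.28. The 25S signal was 700 and 913 at 24 h, against 1642 and 2863 at 0 h. The GAPDH ratio was 0.905 and 0.974, against 0.989 and 0.981, and the ubiquitin ratio 1.017 and 1.084, against 1.203 and 1.0996. These did not overlap, while the actin ratio did (2.28 and 1.96, against 2.22 and 1.75). The part of all these measures in the result was not tested.

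With both treatments pooled, 4 arrays at 24 h were compared with 4 at 4 h. Here 4.25% of all tested probe sets passed as higher and 3.45% as lower, and 0 of 10 members passed by limma, with 0 at an unadjusted p under 0.05 (background 11.2% upward and 9.53% downward). Their log2 changes lay between -0.30 for psbN and 0.06 for psbF, with a median of -0.07, and 8 of 10 were below 0 (background 47.2%).

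**Figure D2:**
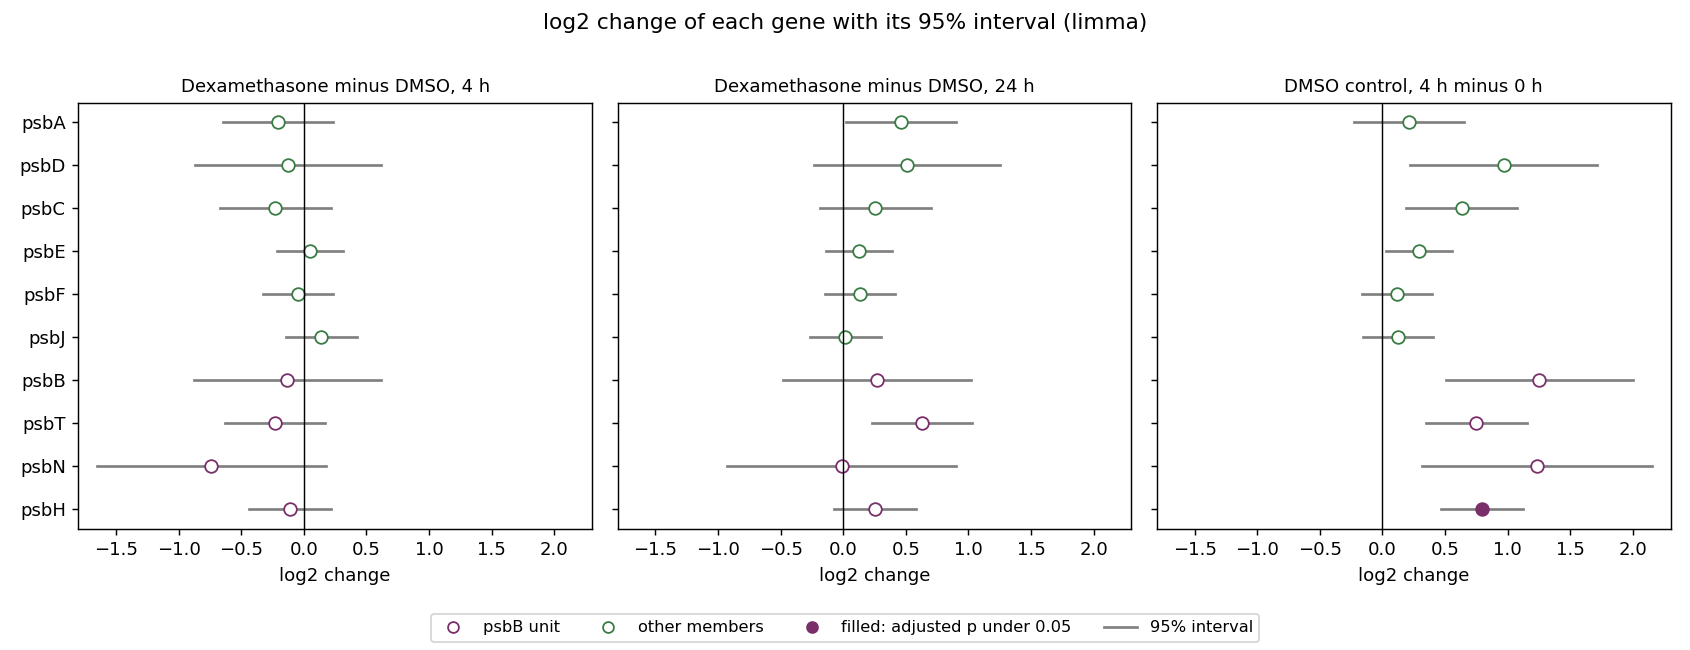
log2 change of each gene (points) with its 95% interval from limma (lines) for dexamethasone minus DMSO at 4 h and at 24 h and for the DMSO control at 4 h minus 0 h. The filled point, psbH at 0.80 in the control comparison, is the member that passed at an adjusted p under 0.05.

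Dexamethasone and DMSO were compared at 4 h to find transcripts that respond early, with the same 4 h control arrays as above. No member passed by limma, and none had an unadjusted p under 0.05, as 3.74% of probe sets did upward and 3.27% downward. Over all tested probe sets 1 passed as higher (0.00686%) and 0 as lower (0%), with 1022 at an unadjusted p under 0.05. The members' log2 changes ran between -0.74 for psbN and 0.14 for psbJ, with a median of -0.13, against -0.01 over all. 8 of 10 lay below 0 (background 52.2%), and in 4 of 10 both dexamethasone arrays lay below both controls (18.4%). The smallest adjusted p among them was 0.751.

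psbC had 1061 and 1143 with dexamethasone at 4 h, against 1280 and 1298 in the control. Both dexamethasone arrays were lower, for a log2 change of -0.23 (SE 0.20, 95% interval -0.67 to 0.22). psbD had 383 and 390, against 418 and 426, again with no overlap (-0.12, interval -0.87 to 0.62). psbH had 1162 and 1149, against 1267 and 1232 (-0.11, interval -0.44 to 0.21). The fourth member without overlap was psbN, with 34.8 and 61.3 under dexamethasone against 98.8 and 65.0 in the control (-0.74, interval -1.65 to 0.18).

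The other members overlapped, apart from psbJ. psbJ had 1032 and 1191 with dexamethasone, against 989 and 1023, the 1 member with both dexamethasone arrays higher (background 16.5%), at 0.14. psbB had 659 and 737 with dexamethasone, against 815 and 715 in the control (-0.13), and psbT 324 and 301, against 432 and 312 (-0.23). psbA had 1499 and 1589, against 1564 and 2027 (-0.21). The cytochrome b559 genes were near 0, psbE at 0.05 and psbF at -0.04.

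The spike-in mean was -0.28 and 0.24 with dexamethasone at 4 h, against 0.03 and 0.51 in the control. The ubiquitin ratio was 1.071 and 1.117 with dexamethasone, against 1.044 and 1.048 in the control, without overlap. The GAPDH and actin ratios and EXPA7 overlapped. With the spike-in level as a covariate, whose slope drew on the 0 h controls too, 5 of 10 members lay above 0 and the median was 0.01. The signs of psbB (0.15), psbD (0.19) and psbF (0.06) were turned, none of them passing.

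At 24 h most members had higher signals with dexamethasone than in the control. 9 of 10 were above 0 (background 52.5%), with a median log2 change of 0.26, against 0.01 over all, and in 7 of 10 both dexamethasone arrays lay above both controls (18%). None passed by limma (smallest adjusted p = 0.999), where 1 of all tested probe sets passed as higher (0.00686%). psbT and psbA had an unadjusted p under 0.05, 2 of 10 against 1.88% of probe sets in that direction, and 451 probe sets did in all.

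psbT had 410 and 383 with dexamethasone at 24 h, against 279 and 232 in the control. The dexamethasone arrays were close to each other and apart from the controls, for a log2 change of 0.63 (SE 0.18, unadjusted p = 0.00531, limma adjusted p = 0.999). psbA had 1587 and 2435, against 1303 and 1555. The groups did not overlap, though the lower dexamethasone array was just above the higher control, and replicate 2 was by far the higher one, for a log2 change of 0.46 (SE 0.20, unadjusted p = 0.0402, adjusted p = 0.999). The psbA change was 0.16 without replicate 2 of dexamethasone and 0.77 without replicate 1.

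psbD had 440 and 527 with dexamethasone at 24 h, against 372 and 305 in the control, a log2 change of 0.51 (SE 0.34). psbC had 1164 and 1232, against 1012 and 992 (0.26, SE 0.20). psbH had 1235 and 1218, against 1138 and 926 (0.26, SE 0.15). In these 3 genes both dexamethasone arrays were higher, and none passed. The psbH change was 0.11 without replicate 2 of the control.

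psbE had 1592 and 1545, against 1420 and 1455 (0.13), and psbF 2393 and 2513, against 2183 and 2275 (0.14), also without overlap. psbB had 667 and 729, against 694 and 479 (0.27), so 1 control array lay between the dexamethasone arrays, and the psbB change was 0.0068 without replicate 2 of the control. psbJ (0.02) and psbN (-0.01) were near 0, and the psbN arrays were wide apart, with 33.1 and 70.5 under dexamethasone against 48.0 and 50.2.

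The spike-ins also differed in level between these groups. Their mean was 0.19 and 0.34 with dexamethasone at 24 h, against -0.34 and -0.29 in the control, without overlap. With that level as a covariate the members' median was -0.06, and 4 of 10 lay above 0. psbT then had 0.99 and psbA 0.13, while psbB (-0.29), psbC (-0.12), psbD (-0.11), psbE (-0.06) and psbF (-0.07) lay below 0, with no member passing (adjusted p = 0.485 for psbT). The slope of the covariate came from differences between replicates within groups. The 0 h controls, outside this comparison, were among them and had the spike-ins furthest apart (-0.53 and 0.14). The fit therefore does not test the spike-in gap at 24 h. The 25S signal overlapped, at 532 and 2319 with dexamethasone against 700 and 913, and RCA had 5975 and 5789 against 5793 and 5580. The ubiquitin 3' to 5' ratio was 1.144 and 1.229 with dexamethasone, against 1.017 and 1.084 in the control, without overlap, while those of GAPDH and actin overlapped. The guard cell marker FMA had 36.0 and 39.7 with dexamethasone, against 50.3 and 45.0, also without overlap. The part of these measures in the result was not tested.

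Averaged over both times, the median log2 change of the members with dexamethasone was 0.07 (9 of 10 above 0, background 49.4%), between -0.38 for psbN and 0.20 for psbT. 0 members passed by limma and 0 had an unadjusted p under 0.05 (background 2.74% upward and 1.51% downward), while 2 of all tested probe sets passed as higher (0.0137%) and 620 had an unadjusted p under 0.05. The 95% interval was narrowest for psbF (-0.11 to 0.20) and widest for psbN (-0.94 to 0.19).

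The effect of dexamethasone at 24 h minus that at 4 h was tested directly. The members' median was 0.44, against 0.02 over all, and 9 of 10 lay above 0 (background 53%), with psbJ at -0.12. None passed by limma (smallest adjusted p = 0.832), and 0 of all tested probe sets did (0% in either direction), with 799 at an unadjusted p under 0.05. psbT (0.86, SE 0.26, unadjusted p = 0.00651) and psbA (0.67, SE 0.28, unadjusted p = 0.0371) were below that level, 2 of 10 against 3.07% in that direction. Without replicate 2 of dexamethasone at 24 h, psbA was at 0.36. In psbC, psbD and psbH both dexamethasone arrays were below both controls at 4 h and above both at 24 h, 3 of 10 against 3.37%. With the spike-in level as a covariate the members' median was -0.10, and 3 of 10 lay above 0. The slope of that covariate drew on the 0 h controls too, which take no part in this comparison.

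**Figure D3:**
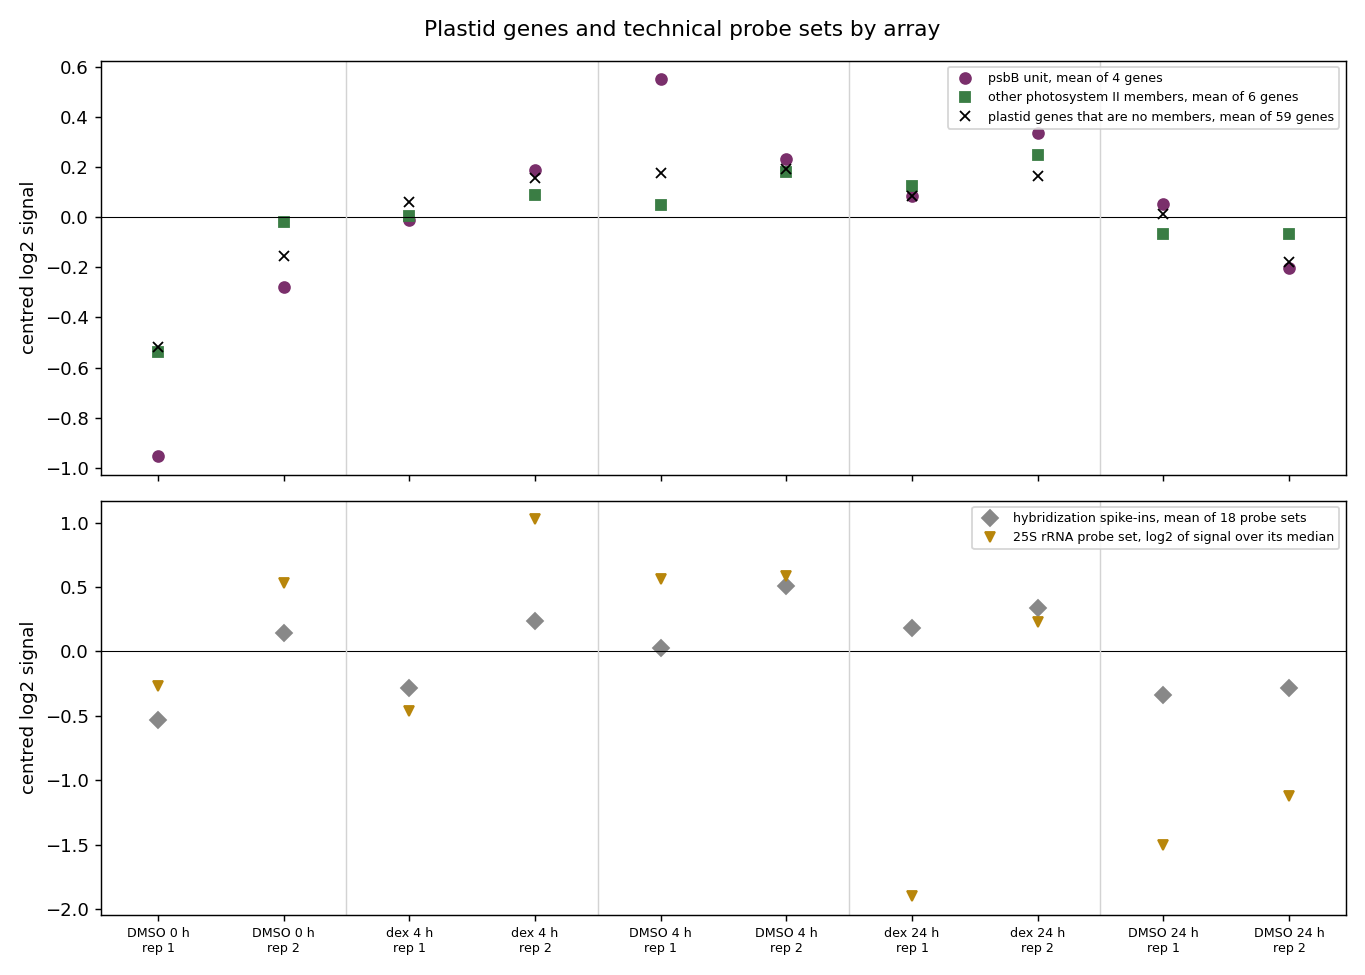
Upper panel, centred log2 signal on each array as the mean of the psbB unit (4 genes), the other members (6) and the plastid genes that are no members (59). Lower panel, the mean of the 18 spike-in probe sets and the 25S ribosomal RNA probe set. Replicate 1 of the 0 h control is lowest in the upper panel (-0.95 for the unit, -0.54 for the other members) and has the lowest spike-ins (-0.53).

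The genes of the psbB unit were set against the other members on each array, as the mean centred log2 signal of psbB, psbT, psbN and psbH minus that of the other 6. This is a description, with no test over genes. The unit lay below the others on both 0 h arrays, at -0.42 and -0.26. In the control at 4 h the difference was 0.50 on replicate 1 and 0.05 on replicate 2, so the high value of that group was on 1 array. In the remaining groups it was -0.01 and 0.10 with dexamethasone at 4 h, -0.04 and 0.09 with dexamethasone at 24 h and 0.12 and -0.14 in the control at 24 h. The SD within groups was 0.18.

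In the control at 4 h against 0 h the mean log2 difference was 1.01 for the unit and 0.39 for the other members. The difference between these was 0.62, and 0.54 without psbN, the weak probe set. It was 0.39 without replicate 1 of the 4 h control, and 0.36 without that array and psbN, with values of 0.39 to 0.84 over the 4 arrays left out in turn, an alternative added after the values had been seen. In the control at 24 h against 0 h it was 0.54 for the unit and 0.21 for the others. With dexamethasone at 4 h the unit averaged -0.30 and the others -0.07, a gap of -0.23 that was -0.09 without psbN. With dexamethasone at 24 h they averaged 0.29 and 0.25, a gap of 0.03 that was 0.13 without psbN. Within the unit the members did not keep one profile. psbB, psbN and psbH were lowest on replicate 1 of the 0 h control and psbT on replicate 2. In both dexamethasone groups psbB and psbN were lower on replicate 1 than on replicate 2, and psbT and psbH were higher.

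petB and petD, cytochrome b6f genes at the end of the same cluster, were looked at beside the unit. petB had 3963 and 4533 in the control at 4 h, against 2865 and 3288 at 0 h, without overlap (log2 change 0.46, SE 0.13, adjusted p = 0.0928). With dexamethasone petB was at -0.03 at 4 h and 0.17 at 24 h. petD was a weak probe set, with 36.7 and 52.2 in the control at 4 h, against 21.0 and 47.3 at 0 h (0.41, SE 0.32). Its change with dexamethasone was -0.14 at 4 h and 0.52 at 24 h, and neither passed.

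**Figure D4:**
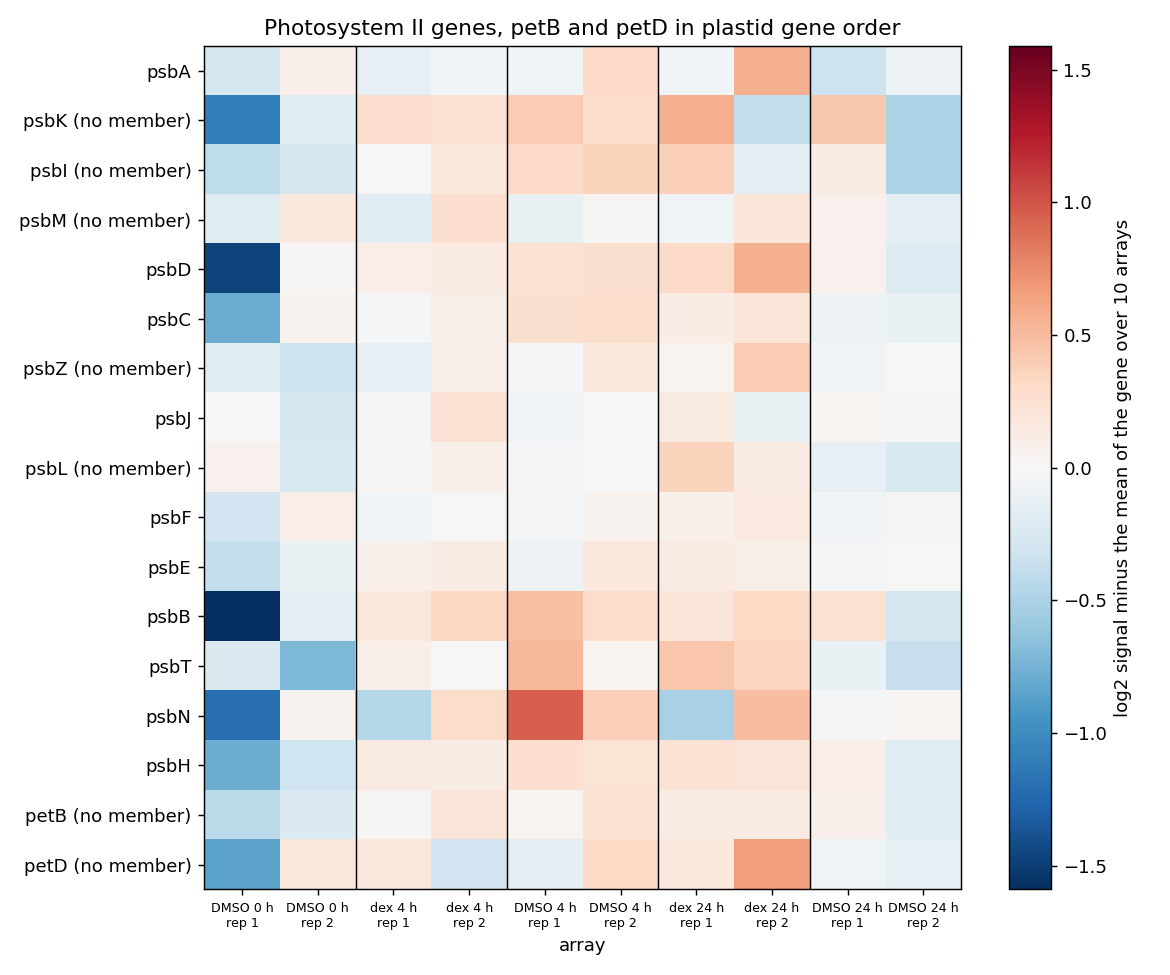
log2 signal of each gene minus its mean over the 10 arrays (colour), for the members, petB, petD and 5 more plastid photosystem II genes, listed by locus tag. The darkest blue cells are psbB, psbD and psbN on replicate 1 of the 0 h control, and the row of psbF stays near 0.

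The plastid photosystem II genes psbI, psbK, psbL, psbM and psbZ, all small subunits and added after the data had been seen, were measured by single-gene probe sets as well. Their median log2 change was 0.34 in the control at 4 h against 0 h, with 4 of 5 above 0 and 0 passing. psbK, neighbour of psbI, had 3755 and 3433 in the control at 4 h, against 1321 and 2490 at 0 h (0.98, adjusted p = 0.227). At 24 h of dexamethasone all 5 lay above 0, with a median of 0.24, and at 4 h 2 of 5 did, with a median of -0.09. psbL had 479 and 411 with dexamethasone at 24 h, against 341 and 316 in the control (0.43, unadjusted p = 0.00698, adjusted p = 0.999), and did not pass. psbK at 24 h split by replicate instead, with 4196 and 2163 under dexamethasone, against 3822 and 1999.

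The other plastid genes were counted in the same comparisons. Of the 57 that passed the filter, 55 lay above 0 in the control at 4 h against 0 h, with a median of 0.51, and 10 passed. These included 3 of the 6 ATP synthase genes, whose median was 0.70. The 5 photosystem I genes had a median of 0.53, between 0.31 for psaI and 1.51 for psaA, with 0 passing. The 6 cytochrome b6f genes had 0.44 and the 9 NDH genes 0.46, with 0 passing in either. With dexamethasone at 24 h, 54 of the 57 lay above 0 with a median of 0.19, 0 passing. Its extremes were atpI, a subunit of the ATP synthase membrane part, at 0.54 and rps15, a ribosomal protein gene, at -0.06. At 4 h of dexamethasone 20 of 57 lay above 0 with a median of -0.10.

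Pearson's r with the mean centred profile of the members over the 10 arrays was computed for 7888 single-gene probe sets, which share the arrays and their scaling. The 5 highest were psaC (0.955) and psaA (0.954), photosystem I genes, accD (0.954), for a subunit of acetyl-CoA carboxylase, atpH (0.951), an ATP synthase gene, and cemA (0.944), for an envelope membrane protein. All are plastid genes. Of the first 50, 29 were plastid genes, which made up 0.723% of those compared. The profile of the members was -0.70 on replicate 1 of the 0 h control and between -0.12 and 0.28 on the other arrays. The mean of the plastid genes that are no members was lowest on that array as well (-0.52). How far r rests on that array was not tested.

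Nuclear genes of photosystem II were represented by a few single-gene probe sets. Of 13 nuclear subunits 3 were measured, and 0 of these passed in any of the comparisons. With dexamethasone at 24 h they ran between 0.05 for PSB27, a lumenal assembly protein, and 0.32 for PSBW, a small subunit. PSBW averaged 2395 ± 157 against 1920 ± 65.0 (SD, n = 2 each, limma unadjusted p = 0.0186, adjusted p = 0.999). The changes of these 3 subunits in the control at 4 h against 0 h ran between -0.15 for PSBY and 0.10 for PSBW. The plastid members had their median there at 0.69.

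Of 14 antenna genes 3 were measured, the minor antenna genes LHCB4.1, LHCB4.2 and LHCB4.3. LHCB4.2 fell in the control at 4 h, with a mean of 862 ± 36.0 against 1547 ± 12.7 at 0 h (log2 change -0.84, limma adjusted p = 0.0115), and rose at 24 h against 4 h with treatments pooled (0.92, limma adjusted p = 0.000268). It thus passed in the control at 4 h with a sign opposite to that of psbH. LHCB4.3 went the other way from LHCB4.2 in these comparisons, at 0.44 and -0.43. LHCB4.1 was at -0.03 and 0.27, and neither of these genes passed. With dexamethasone the 3 were above 0 at both times and none passed. LHCB4.2 was at 0.74 at 4 h (limma unadjusted p = 0.00038, adjusted p = 0.396). At 24 h it was at 0.43 (limma unadjusted p = 0.0143, adjusted p = 0.999). Of 15 assembly and repair genes 5 were measured, LPA1, LPA2, PAM68, RBD1 and CTPA, and 0 passed in any comparison. At 4 h of dexamethasone they ran between -0.13 for LPA2, a factor for CP43 assembly, and 0.25 for RBD1, a rubredoxin needed for photosystem II, and at 24 h between -0.20 for LPA1, a D1 assembly factor, and 0.13 for RBD1. None of the 6 sigma factors, which direct the plastid polymerase to its promoters, or of the 5 RNA factors of these transcripts had a single-gene probe set here.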

How the data were processed

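Signal intensities of 10 ATH1 arrays, 1 per sample, were used as the authors deposited them. Per the submitters' processing notes they come from GCOS and MAS5, with versions not stated there. The deposited intensity is linear, and the trimmed means of the arrays lie between 98.8 and 99.1, a scaling that hides any change in total RNA. No detection calls were used, and 2 arrays per group limit the precision. Of 22810 probe sets, 13513 were assigned to 1 gene, 503 to several and 8730 to none; 13436 symbols were updated through RefSeq.

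The analysis used log2(signal + 4.35), where the constant is percentile 20 of all values, and this understates changes of weak probe sets such as psbN. After removal of 64 control probe sets, those above percentile 40 on 2 or more arrays were kept (14575, among them all 10 members). limma 3.58.1 in R 4.3.3 was run as lmFit and eBayes (trend) with a mean for each group, leaving 5 residual degrees of freedom. For the average of dexamethasone, the 8 later arrays were fitted with time in the model. Tests were two-sided, and Benjamini-Hochberg adjustment ran over all probe sets kept. The fit was tested on simulated data. The members and lists were chosen with earlier results of these data known. The text names every member, petB, petD, the 5 genes most alike and, for some lists and comparisons, the extremes. Extremes of the other lists are not all named, and other genes were chosen after their values were seen. Alternatives were constants of 1 and 16, no filter or a stricter one, quantile normalization, no trend, the replicate number as a block, arrays left out and, added later, the spike-in level as a covariate. The slope of that covariate came from differences between replicates within groups. The 0 h controls were among them, except in the average of dexamethasone. Python 3.11.15 with pandas 2.3.3 and matplotlib 3.10.9 served for tables and plots.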

Additional observations from a re-analysis of the deposited data

Results flagged for a closer look

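For psbC, psbD and psbH, both dexamethasone arrays lay below both controls at 4 h and above both at 24 h. The effect at 24 h minus that at 4 h was 0.48 for psbC (SE 0.29, limma adjusted p = 0.832), 0.63 for psbD (SE 0.48, adjusted p = 0.843) and 0.37 for psbH (SE 0.21, adjusted p = 0.832), so none of the differences passed. The same order of arrays was found in 3.37% of tested probe sets. With the spike-in level as a covariate the differences were -0.08 for psbC, -0.29 for psbD and 0.13 for psbH. The slope of that covariate drew on the 0 h controls too.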

How the results depend on the processing

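Of 70 results for single members, 36 changed sign in at least 1 alternative. The 1 result that had passed, psbH in the control at 4 h against 0 h, kept its sign. It lost its call without a trend and with the spike-in covariate, among others. In the control at 4 h against 0 h, where 1 member passed, 2 passed with quantile normalization, 2 with the replicate block, 0 without a trend, 3 without the pair of arrays set apart by the second axis, and 0 to 4 with single arrays left out. The median there was 0.40 with the spike-in covariate and 0.24 to 0.77 with 1 array left out. For the control at 24 h against 0 h it was 0.017 to 0.53. With the spike-in covariate the median was -0.065 for dexamethasone at 24 h and -0.10 for the effect at 24 h minus that at 4 h. Under the stricter filter psbN was not tested. The cause of these shifts was not tested.

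Signs turned with the spike-in covariate for dexamethasone at 4 h in psbB (0.15), psbD (0.19) and psbF (0.059), at 24 h in psbB (-0.29), psbC (-0.12), psbD (-0.11), psbE (-0.063) and psbF (-0.067), on average in psbC (-0.041), and for 24 h minus 4 h in psbB (-0.44), psbC (-0.084), psbD (-0.29), psbE (-0.21), psbF (-0.13) and psbN (-0.25). They turned in the control at 4 h in psbA (-0.055) and psbF (-0.051), and at 24 h against 4 h in psbD (0.15) and psbE (0.025). Quantile normalization gave psbJ -0.0053 for dexamethasone at 24 h, psbF -0.0024 in the control at 4 h, and psbD 0.0037 and psbJ 0.0019 at 24 h against 4 h. The constant of 16 gave psbN 0.0022 for dexamethasone at 24 h. Without both arrays that stood apart, psbC had -0.0052 on average, psbJ 0.0024 for 24 h minus 4 h and psbA 0.020 in the control at 24 h.

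With 1 array left out, signs turned in these ranges. For dexamethasone they were -0.074 to 0.18 in psbE at 4 h, -0.11 to 0.14 in psbJ and -0.51 to 0.49 in psbN at 24 h, and -0.050 to 0.20 in psbE for 24 h minus 4 h. On average they were -0.061 to 0.27 in psbA, -0.076 to 0.15 in psbB, -0.050 to 0.084 in psbC and -0.025 to 0.12 in psbH. Those in the control at 4 h were -0.093 to 0.32 in psbF and -0.014 to 0.26 in psbJ. Those in the control at 24 h were -0.29 to 0.074 in psbA, -0.15 to 0.69 in psbC, -0.10 to 1.39 in psbD, -0.13 to 0.29 in psbF, -0.059 to 1.201 in psbN and -0.0078 to 0.47 in psbT. At 24 h against 4 h they were -0.14 to 0.17 in psbA, -0.074 to 0.068 in psbD, -0.085 to 0.039 in psbE, -0.11 to 0.015 in psbJ and -0.20 to 0.027 in psbT.

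Counts over all tested probe sets moved too. At 4 h of dexamethasone the 1 call was 0 under the stricter filter, 3 without both arrays that stood apart and 1 to 80 with 1 array left out. At 24 h it was 0 under the stricter filter and 1 to 8. On average the 2 calls were 0 under the stricter filter, 1 with the spike-in covariate, 15 without both arrays and 1 to 3. For 24 h minus 4 h, 0 calls became 0 to 14. For the control at 4 h the 383 calls were 228 without a trend, 639 without both arrays and 134 to 177 with 1 left out. For the control at 24 h, 0 calls became 0 to 4. At 24 h against 4 h the 1123 calls were 651 to 1104.

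Whether arrays with the same replicate number deviate together was looked at through replicate 1 minus replicate 2 in each group. The 10 correlations of these differences between pairs of groups were -0.42 to 0.18, with 2 over 0.1. The lowest was between the control at 24 h and dexamethasone at 4 h. These groups hold the arrays that stood apart, which carry different replicate numbers. The correlations therefore cannot decide whether the numbers pair the samples. The replicate block changed the psbT call in the control at 4 h (adjusted p = 0.0155), and left 1 call over all probe sets for the average of dexamethasone.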
